A study of Mus musculus with 2 samples.

Results

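The genes described here are the mouse calcium pumps of the sarcoplasmic and endoplasmic reticulum (Atp2a1, Atp2a2 and Atp2a3, which encode SERCA1, SERCA2 and SERCA3), the calcium pumps of the plasma membrane (Atp2b1, Atp2b2, Atp2b3 and Atp2b4, which encode PMCA1 to PMCA4), and the SERCA inhibitor peptides phospholamban (Pln) and sarcolipin (Sln). They were chosen by symbol, and all 9 were found among the 55536 annotated genes of each gene table. Total RNA was sequenced from the hearts of 2 female B6CASTF1/J mice at postnatal day 10, one library per heart. B6CASTF1/J mice are F1 hybrids between the strains C57BL/6J and CAST/EiJ, and the labels give no treatment, no altered allele and no second condition. The hearts are called replicates 1 and 2 as the labels number them. Both carry 1 donor record, and nothing in the labels says more about how the animals were related, so the SD over 2 libraries measures the spread between these samples.

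In a heart muscle cell, each beat releases calcium from the sarcoplasmic reticulum, and SERCA pumps move most of it back at the cost of ATP. Phospholamban and sarcolipin are small membrane peptides that bind SERCA and lower its apparent affinity for calcium, and phosphorylation of phospholamban lifts that inhibition. PMCA pumps and the sodium-calcium exchanger carry calcium out of the cell. SERCA2a is the main form of heart muscle, SERCA1 that of fast skeletal muscle, and SERCA3 is known from blood and endothelial cells. In the mouse heart, sarcolipin RNA is known chiefly from the atria.

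The coding sequences of both inhibitors are short enough to be shown whole, from the GENCODE M21 transcripts on mm10. The capitals mark 15 bases for the 5 amino acids in a row that both peptides share, the longest such run, which fills codons 31 to 35 of Pln and codons 8 to 12 of Sln. Of those 15 bases, 13 were identical. The Pln sequence lies on the plus strand at chr10:53343864-53344022 and the Sln sequence on the plus strand at chr9:53853473-53853568.
Pln coding sequence: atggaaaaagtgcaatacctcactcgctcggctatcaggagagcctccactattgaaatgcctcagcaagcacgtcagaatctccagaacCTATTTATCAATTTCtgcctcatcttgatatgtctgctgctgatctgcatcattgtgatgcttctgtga
Sln coding sequence: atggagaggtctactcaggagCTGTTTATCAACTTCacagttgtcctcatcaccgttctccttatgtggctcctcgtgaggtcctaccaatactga
Pln encodes 52 amino acids and Sln 31, and 44.8% of 29 aligned residues were identical. Codons 16 and 17 of Pln are the serine and threonine that protein kinase A and the calmodulin-dependent kinase CaMKII are known to phosphorylate. Over their leading transcripts by RSEM, Pln and Sln shared no run longer than 11 nt and no stretch of 31 bases, so no read of that length fits both.

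Atp2a2 makes its SERCA2a and SERCA2b forms by splicing at the 3′ end of the coding sequence. Their transcripts also differ in untranslated sequence, which is not shown, so these ends are only a part of what tells their reads apart. Both ends are shown with the last 30 bases they share in lower case and the form's own coding bases, stop codon included, in capitals. They lie on the minus strand, the SERCA2a end across an intron within chr5:122454291-122457332 and the SERCA2b end without a break at chr5:122457151-122457332.
Atp2a2 SERCA2a end: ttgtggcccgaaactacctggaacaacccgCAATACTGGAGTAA
Atp2a2 SERCA2b end: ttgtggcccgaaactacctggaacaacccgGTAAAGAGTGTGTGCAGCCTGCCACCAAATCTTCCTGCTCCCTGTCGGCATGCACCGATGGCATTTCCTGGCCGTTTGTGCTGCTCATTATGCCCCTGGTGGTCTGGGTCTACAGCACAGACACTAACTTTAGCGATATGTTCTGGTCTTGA
Transcript Atp2a2-202 has 998 codons, the SERCA2a reading frame, and Atp2a2-201 has 1044, the SERCA2b reading frame, whose longer end is known to add a further membrane-spanning segment. They share their first 994 codons, after which SERCA2a has 4 codons of its own and SERCA2b has 50.

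All 7 pumps are P-type ATPases, which take the phosphate of ATP onto an aspartate in a short conserved motif. The 21 bases that encode it are shown for 6 of the pumps because they are a part of the sequence that both families keep, with capitals where a gene differs from Atp2a2.
Atp2a2 motif: gataagacaggcacacttacc
Atp2a1 motif: gaCaaAacaggGacCctCacc
Atp2a3 motif: gaCaagacGggGacGctCacc
Atp2b1 motif: gataaAacaggAacCctGacG
Atp2b2 motif: gaCaagacaggAacGctGacc
Atp2b4 motif: gataagacaggcacactGacc
The aspartate is encoded by codon 351 in the 3 SERCA genes, by codon 475 in Atp2b1, 454 in Atp2b2 and 466 in Atp2b4. Beyond this motif the families are far apart. SERCA2 shared 84.5% of aligned residues with SERCA1 and 77.7% with SERCA3, against 33.2% to 34.8% with the 4 PMCA proteins. Among the PMCA genes the closest proteins were those of Atp2b2 and Atp2b3, at 84.8%. Compared over 1 long coding transcript of each gene, no SERCA transcript shared a stretch of 31 bases with a PMCA transcript, and Atp2a2 shared 14 such stretches with Atp2a1 and 14 with Atp2a3.

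The libraries held 40184480 expected counts in replicate 1 and 39620519 in replicate 2 over annotated genes. An expected count is the number of reads given to a gene after reads that fit several places were shared out, and TPM divides it by effective length and scales the entries of each library to the same total. At a level of 1 TPM or more there were 13161 genes in replicate 1 and 13159 in replicate 2. Heart muscle identity was clear from its 5 markers, whose summed level was 21607 TPM in replicate 1 and 23621 TPM in replicate 2. Ventricular markers (4 genes, 13325 and 13185 TPM in replicates 1 and 2) exceeded atrial ones (6 genes, 524 and 962 TPM) in sum. Nearly all of the ventricular sum came from Myl2 (8533 and 8180 TPM) and Myl3 (4769 and 4987 TPM). Irx4 (20.1 and 15.5 TPM) and Hey2 (2.88 and 2.81 TPM) lay below the atrial markers Nppa, Myl7 and Myl4. Hey2 was below all 6 atrial markers. Values below are RSEM TPM unless kallisto is named, the means are over the 2 hearts with the SD (n = 2), and in bulk tissue fewer cells of a type and less RNA per cell cannot be told apart.

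Within the SERCA family, Atp2a2 accounted for nearly the whole RNA. Atp2a2, the pump of heart and slow skeletal muscle, reached 3206 TPM in replicate 1 and 3494 TPM in replicate 2, a mean of 3350 ± 204. These rest on 399437 and 427365 expected counts, 0.994% and 1.08% of each library, and Atp2a2 ranked 30th and 32nd of all annotated genes. It held 99.8% of the summed SERCA TPM in both hearts. The gene (ENSMUSG00000029467.15) lies on chromosome 5 from 122453513 to 122502225 on the minus strand, and the unverified transcript models Gm43359 and Gm43360 inside it on the same strand held at most 0.132% and 0.0708% of its counts.

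Atp2a3 was the second SERCA gene, far below. It stood at 6.89 and 6.39 TPM in replicates 1 and 2 (mean 6.64 ± 0.35), from 874 and 835 counts (ENSMUSG00000020788.15, chromosome 11, 72961169 to 72993044, plus strand). The log2 ratio Atp2a3/Atp2a2, taken within each library on TPM + 0.1, was −8.84 in replicate 1 and −9.07 in replicate 2, so that Atp2a2 was 497-fold higher by the mean. Markers of endothelium, one of the cell types SERCA3 is known from, were all above 1 TPM (6 of 6, summed level 490 and 477 TPM in replicates 1 and 2). Of the platelet and leukocyte markers, 3 of 6 reached 1 TPM in both hearts, with summed levels of 17.9 and 21.7 TPM. Their part in the level of Atp2a3 was not tested.

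Atp2a1, the pump of fast skeletal muscle, was below 1 TPM in both hearts. It had 0.33 TPM in replicate 1 and 0.43 TPM in replicate 2 (mean 0.38 ± 0.07), from 22 and 19 counts, which is 0.0103% and 0.0123% of the Atp2a2 level. The ratio log2 Atp2a1/Atp2a2 was −12.86 in replicate 1 and −12.69 in replicate 2. Of 11 skeletal muscle markers, 2 reached 1 TPM in both hearts, Acta1 at 91.3 and 146 TPM and Casq1 at 2.66 and 4.50 TPM, and Acta1 is also made by heart muscle. Myod1, the master regulator of skeletal muscle, was listed at 0 in both libraries. Atp2a1 (ENSMUSG00000030730.12, chromosome 7, 126445858 to 126463108, minus strand) overlaps Rabep2 on the opposite strand, with 251 and 266 counts, and it shares 31-base stretches with the far more abundant Atp2a2. The part of either in its counts was not tested, and whether the counting used strand is not given in the sources used here.

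Pln was the only one of the inhibitors expressed on the scale of its pump. It reached 2067 TPM in replicate 1 and 1900 TPM in replicate 2, with a mean of 1983 ± 118, from 91888 and 83428 counts. It ranked 41st and 42nd of all annotated genes. Pln (ENSMUSG00000038583.13) lies on chromosome 10 from 53337667 to 53345987 on the plus strand, within a region where Cep85l runs on the opposite strand with 1374 and 1368 counts, 1.495% and 1.64% of those of Pln. Within a library the Pln TPM was 0.645 of the Atp2a2 TPM in replicate 1 and 0.544 in replicate 2. The log2 ratio Pln/Atp2a2 was thus −0.63 and −0.88 (mean −0.76 ± 0.17), a mean beyond 3 SD, the rule used here for calling a pair apart because 2 libraries allow no exact p below 0.5. By kallisto the ratios were −0.31 and −0.56, and their mean of −0.44 ± 0.18 did not pass that rule, although Pln was the lower of the pair in both hearts by both methods.

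Sln was present at a low level and differed between the hearts. It had 9.12 TPM in replicate 1 and 15.8 TPM in replicate 2 (mean 12.4 ± 4.7), from 348 and 590 counts (ENSMUSG00000042045.6, chromosome 9, 53850164 to 53854560, plus strand). It was 277-fold below Atp2a2 (log2 Sln/Atp2a2 −8.11 ± 0.47) and 164-fold below Pln (log2 Sln/Pln −7.36 ± 0.64). Pln therefore held 99.6% and 99.2% of the summed inhibitor TPM in replicates 1 and 2. Sln has a single annotated transcript of 1318 nt, and kallisto gave 9.54 and 14.9 TPM.

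**Figure D1:**
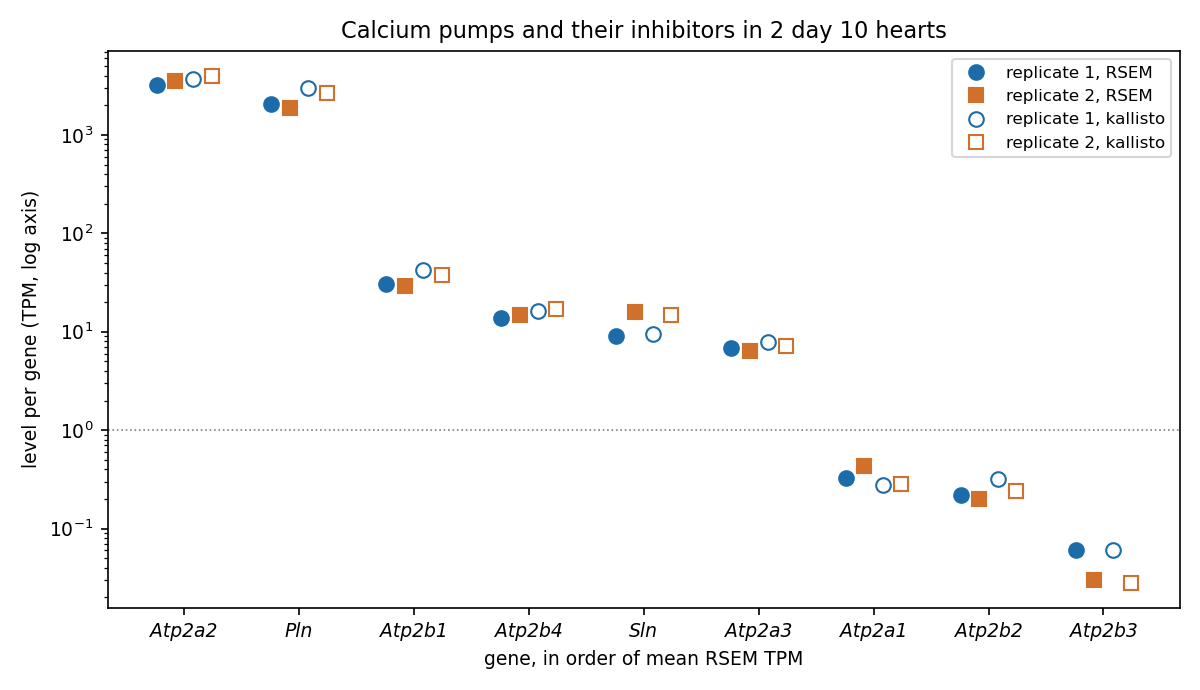
Level of each of the 9 genes in TPM (log axis), in order of mean RSEM TPM, with filled symbols for RSEM, open symbols for kallisto, circles for replicate 1 and squares for replicate 2. The dotted line is 1 TPM. Atp2a2 and Pln stand at about 1900 TPM or more in both hearts, Atp2b1, Atp2b4, Sln and Atp2a3 lie between 6 and 42 TPM, and Atp2a1, Atp2b2 and Atp2b3 lie below 1 TPM.

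The plasma membrane pumps were a small part of the pump RNA. Atp2b1, the widely expressed PMCA1, led the family with 30.9 TPM in replicate 1 and 29.5 TPM in replicate 2 (mean 30.2 ± 1.0), from 3674 and 3575 counts (ENSMUSG00000019943.10, chromosome 10, 98914406 to 99026143, plus strand). Atp2b4, which encodes PMCA4, a form known to bind neuronal nitric oxide synthase, had 13.9 and 14.7 TPM (mean 14.3 ± 0.5), from 2753 and 2847 counts (ENSMUSG00000026463.17, chromosome 1, 133699457 to 133801041, minus strand). Atp2b1 was the higher of the pair in both hearts, with log2 Atp2b1/Atp2b4 of 1.15 in replicate 1 and 1.00 in replicate 2, or 2.11-fold by the mean. Together they made up nearly all PMCA RNA, Atp2b1 with 68.5% and 66.4% and Atp2b4 with 30.8% and 33.0% of the summed TPM.

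Atp2b2 and Atp2b3, known mainly from nerve cells, were near the lower end of the measured range. Atp2b2 had 0.22 and 0.20 TPM in replicates 1 and 2, from 43 and 32 counts (ENSMUSG00000030302.16, chromosome 6, 113743831 to 114042613, minus strand). Its level depends on the estimator, since the posterior mean TPM in the same deposited table was 0.41 and 0.34. Atp2b3 had 0.06 and 0.03 TPM, from 7 and 3 counts (ENSMUSG00000031376.15, chromosome X, 73503086 to 73571005, plus strand), and at that depth no difference between the hearts was detectable. Relative to Atp2b4, the log2 ratio was −5.53 ± 0.12 for Atp2b2 and −6.64 ± 0.27 for Atp2b3 on TPM + 0.1, a scale that understates folds of genes this low. Markers of neurons and Schwann cells reached 1 TPM in both hearts for 2 of 6 genes and summed to 8.96 and 3.84 TPM in replicates 1 and 2, and their part in these levels was not tested.

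The summed level of the 4 PMCA genes was 45.0 TPM in replicate 1 and 44.4 TPM in replicate 2, against 3213 and 3500 TPM for the 3 SERCA genes. The PMCA genes thus held 1.38% and 1.25% of all pump TPM, and the SERCA sum was 74.9-fold higher by the mean of the log2 ratios. The sodium-calcium exchanger gene Slc8a1, the other route of calcium out of the heart cell, had a level of 260 TPM in replicate 1 and of 247 TPM in replicate 2. It was 5.77-fold and 5.58-fold above the PMCA sum in the same hearts, a log2 ratio of 2.50 ± 0.03. RNA levels say nothing of the calcium each protein moves.

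**Figure D2:**
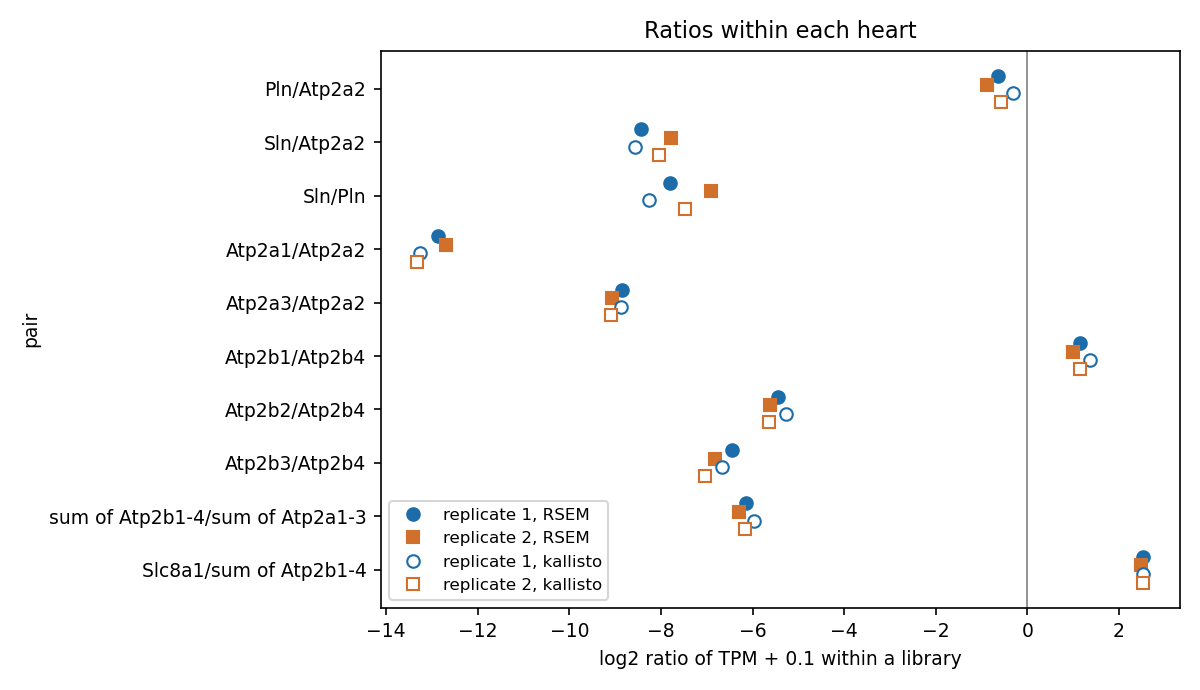
The log2 ratio of TPM + 0.1 within each library for the 10 pairs, with filled symbols for RSEM, open symbols for kallisto, circles for replicate 1 and squares for replicate 2. Points left of 0 mean that the gene named first is lower. The pair Pln and Atp2a2 lies nearest to 0, and every pair keeps its side of 0 in both hearts by both methods.

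Ordered by mean level, the 9 genes ran Atp2a2, Pln, Atp2b1, Atp2b4, Sln, Atp2a3, Atp2a1, Atp2b2 and Atp2b3. Between neighbours in that order the values of both hearts were apart in every case but Atp2b4 and Sln, where the lower Atp2b4 value, 13.9 TPM, was below the higher Sln value, 15.8 TPM. By kallisto Atp2b4 and Sln were apart, and Atp2a1 and Atp2b2 were not. The RSEM intervals of Atp2a1 were 0.18 to 0.65 and 0.21 to 0.78 TPM in replicates 1 and 2. They overlapped those of Atp2b2, 0.22 to 0.64 and 0.19 to 0.53 TPM, so the order of that pair is not settled. The level of Pln was also the one that kallisto moved most among the 6 genes above 1 TPM, to 2971 and 2683 TPM, 1.43-fold above RSEM. Of the 10 pairs described, including the sums, all 10 passed the rule of 3 SD with RSEM values.

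The reads could also be divided among the transcripts of each gene, 51 in all for the 9 genes. For Atp2a2 both methods put the SERCA2a transcript first. Atp2a2-202 held 76.3% of the gene's TPM in replicate 1 and 75.1% in replicate 2 by RSEM, and 82.9% and 81.6% by kallisto. The SERCA2b transcript Atp2a2-201 held 22.0% and 23.4% by RSEM, and 15.9% and 17.4% by kallisto. The form of heart muscle thus exceeded the widely expressed form 3.47-fold in replicate 1 and 3.21-fold in replicate 2 by RSEM, and 5.21-fold and 4.70-fold by kallisto. Replicate 1 had the higher ratio by both methods, and the gap between methods was wider than that between hearts. SERCA2b RNA alone stood at 704 and 816 TPM in replicates 1 and 2 by RSEM, well above the highest PMCA gene. The other 3 Atp2a2 transcripts, one of them a model with a retained intron, each held less than 1% in each heart by each method.

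Pln is annotated with 6 transcripts, and all 6 carry the same coding sequence of 52 codons, so they differ only in untranslated sequence. RSEM gave Pln-201, of 2334 nt, 51.3% of the TPM in replicate 1 and 53.1% in replicate 2, and Pln-205, of 531 nt, 35.5% and 36.5%. Kallisto gave Pln-205 nothing and Pln-204, of 771 nt, 60.0% and 59.7%, which left 37.0% and 38.0% for Pln-201. By RSEM Pln-204 held 8.98% and 7.65%. The hearts differed by less than 3 percentage points for each of these 3 transcripts by either method, while RSEM put Pln-205 and kallisto put Pln-204 first among the short transcripts. TPM gives a short transcript more weight per read, and Pln-201 held 80.7% and 82.9% of the expected counts of the gene. The short Pln forms are therefore not settled by these tables, whereas the encoded peptide is the same in each.

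The leading transcript of Atp2b1 was Atp2b1-201, the only one of its 11 with a complete coding sequence, of 1220 codons. It held 42.9% and 45.3% of the TPM in replicates 1 and 2 by RSEM, and 38.7% and 42.4% by kallisto. By expected counts, where its 7130 nt are not divided out, the share was 79.3% and 80.7%. Shorter models with no complete coding sequence took much of the rest, led by Atp2b1-208 with 21.2% and 18.5%, Atp2b1-209 with 17.4% and 19.5%, and Atp2b1-207 with 10.5% and 11.8% by RSEM.

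Atp2b4 put most of its RNA into messages for the longest annotated form of PMCA4. The transcripts with 1205 codons, Atp2b4-207 and Atp2b4-206, together held 65.3% and 63.6% of the TPM in replicates 1 and 2 by RSEM, and 64.4% and 64.2% by kallisto. Atp2b4-207 alone held 55.0% and 54.1% by RSEM. The form of 1172 codons, Atp2b4-203, held 9.93% and 13.9% by RSEM and 9.73% and 14.8% by kallisto, higher in replicate 2 by both methods. Its RSEM intervals, 0.57 to 1.88 TPM in replicate 1 and 1.08 to 2.63 TPM in replicate 2, overlapped. Atp2b4-204, of 588 nt and with no complete coding sequence, held 22.6% and 20.4% by RSEM. Kallisto gave 5.88% and 6.11% to Atp2b4-202, which RSEM listed at 0. The PMCA4 splice forms are known to differ in the calmodulin-binding tail at the C-terminal end.

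For Atp2a3 the leading transcript was Atp2a3-201, with 1038 codons, at 57.2% and 69.8% of the TPM in replicates 1 and 2 by RSEM and 69.4% and 75.8% by kallisto. Next came Atp2a3-203, with 999 codons, at 27.3% and 11.9% by RSEM, and Atp2a3-207, with 1026 codons, at 5.08% and 12.7%. By RSEM, the hearts differed more in the share of the leading transcript of Atp2a3 than in that of Atp2a2, Pln or Atp2b1. The Atp2a3 shares rest on 874 and 835 counts in replicates 1 and 2, fewer than for any of those genes. The leading transcript was the same in both hearts and by both methods for 6 of the 9 genes, Atp2a2, Atp2a3, Sln, Atp2b1, Atp2b3 and Atp2b4. The exceptions were Pln, described above, and Atp2a1 and Atp2b2, each with fewer than 45 counts in either heart. Of the 6, Sln could not differ because it has 1 annotated transcript. Atp2b3 rests on 7 and 3 counts in replicates 1 and 2, fewer than Atp2a1 or Atp2b2, so its place among the 6 says little.

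**Figure D3:**
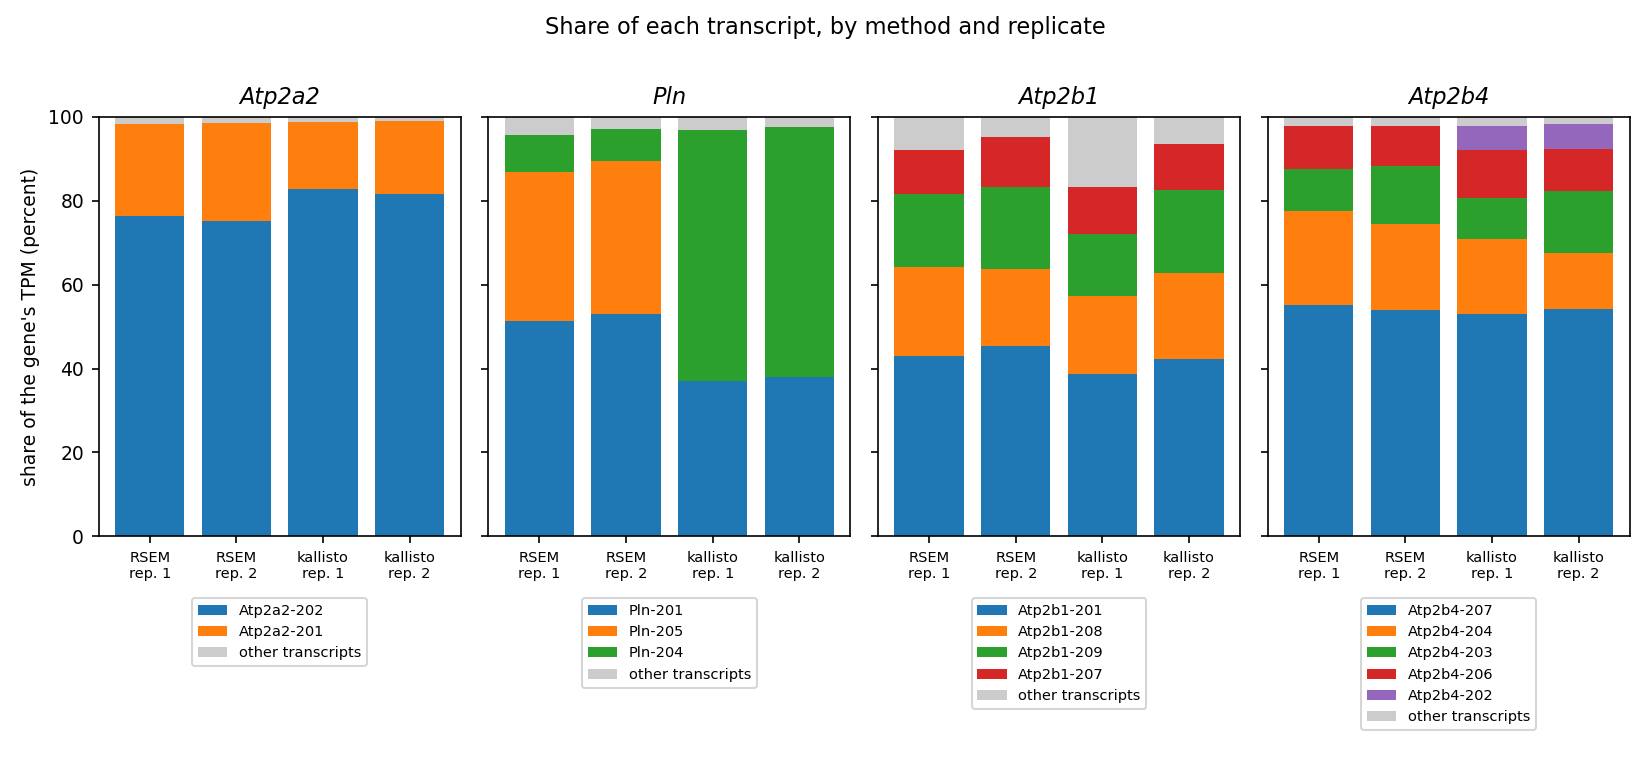
Share of the gene's TPM (percent) in each transcript of Atp2a2, Pln, Atp2b1 and Atp2b4, as stacked bars for each method and replicate. Transcripts with at least 5% in both hearts by either method are coloured, and the rest are grey. The SERCA2a transcript Atp2a2-202 leads in all 4 bars with 75.1% to 82.9%, whereas the Pln bars of RSEM and kallisto divide the short transcripts differently.

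Between the hearts, the pumps and Pln differed little and Sln differed most among the 8 genes with enough counts. Ratios are of counts scaled by TMM (a trimmed mean over genes), replicate 1 over replicate 2, over genes with 20 or more counts in the 2 libraries together, which left out Atp2b3. The intervals are exact 95% binomial intervals and cover counting error only. Of the 8 genes, 1 was past 1.5-fold in either direction, against a background of 8.05% of the 16517 genes tested. The median absolute log2 ratio was 0.12 for the 8 genes and 0.12 for all genes tested. With 1 library per heart these values compare the 2 libraries, and no p-value is given.

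Atp2a2 and Pln lay on opposite sides of 0. The log2 ratio of Atp2a2 was −0.13 (interval −0.14 to −0.13), a level slightly lower in replicate 1, and that of Pln was 0.10 (0.09 to 0.12), a level slightly higher in replicate 1. Both are about as large as the median over all genes, so the counting intervals, narrow at this depth, do not set these genes apart from the rest. The log2 ratio was 0.03 for Atp2a3 (−0.11 to 0.17), 0.00 for Atp2b1 (−0.06 to 0.07) and −0.09 for Atp2b4 (−0.16 to −0.01). For Atp2a1 and Atp2b2 the intervals ran from −0.78 to 1.14 and from −0.30 to 1.10, and no difference was detectable at this depth.

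Sln had a log2 ratio of −0.80 (−0.99 to −0.61), or 1.74-fold higher in replicate 2, in the direction of which 3.80% of all genes tested were past 1.5-fold. The deposited RSEM interval of its posterior mean TPM, 8.02 to 9.89 in replicate 1, did not overlap that in replicate 2, 14.2 to 16.7. Genes of atrial muscle moved the same way. Of 6 atrial markers, 5 were past 1.5-fold and higher in replicate 2, and the summed level of the list was 524 TPM in replicate 1 and 962 TPM in replicate 2, with none at 0. Nppa, the atrial natriuretic peptide, had 247 and 463 TPM, Myl7, the atrial regulatory light chain, had 146 and 256 TPM, and Myl4, the atrial essential light chain, had 104 and 197 TPM. Bmp10, a growth factor of atrial muscle, had 9.35 and 20.2 TPM, and Kcnj3, a potassium channel subunit, had 6.18 and 13.3 TPM. Tbx5, a transcription factor of atria and left ventricle, had 11.3 and 11.5 TPM. Sln and these markers were known to differ in these libraries when the lists were made, so the shared direction is no independent evidence.

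The 5 atrial genes other than Tbx5 were themselves higher in replicate 2, so dividing Sln by them narrows its difference by arithmetic. Sln stood at 6.23% of the Myl7 level in replicate 1 and 6.16% in replicate 2, and at 3.69% and 3.40% of Nppa. The widest gaps among those 5 were with Bmp10, at 97.5% and 78.2%, and Kcnj3, at 148% and 118%. Over the whole list the share was 1.74% and 1.64%. Relative to Tbx5 the values were 80.6% and 137%. Of the ventricular markers 0 of 4 were past 1.5-fold, and of those of working heart muscle 0 of 5. Red cell genes were higher in replicate 2 as well, 5 of 5 past 1.5-fold, with a summed level of 5269 TPM in replicate 1 and 12984 TPM in replicate 2. Of the skeletal muscle markers, 5 of 11 had enough counts. Of these, 3 (Acta1, Casq1 and Tnni2) were past 1.5-fold and higher in replicate 2, and 1, Actn3, was higher in replicate 1. Tnni2 rests on 15 and 31 counts in replicates 1 and 2, and Actn3 on 13 and 8. The counting interval of the log2 ratio of Actn3, from −0.72 to 2.14, spans 0. The part of atrial tissue, blood or any other cell type in the difference of Sln was not tested.

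**Figure D4:**
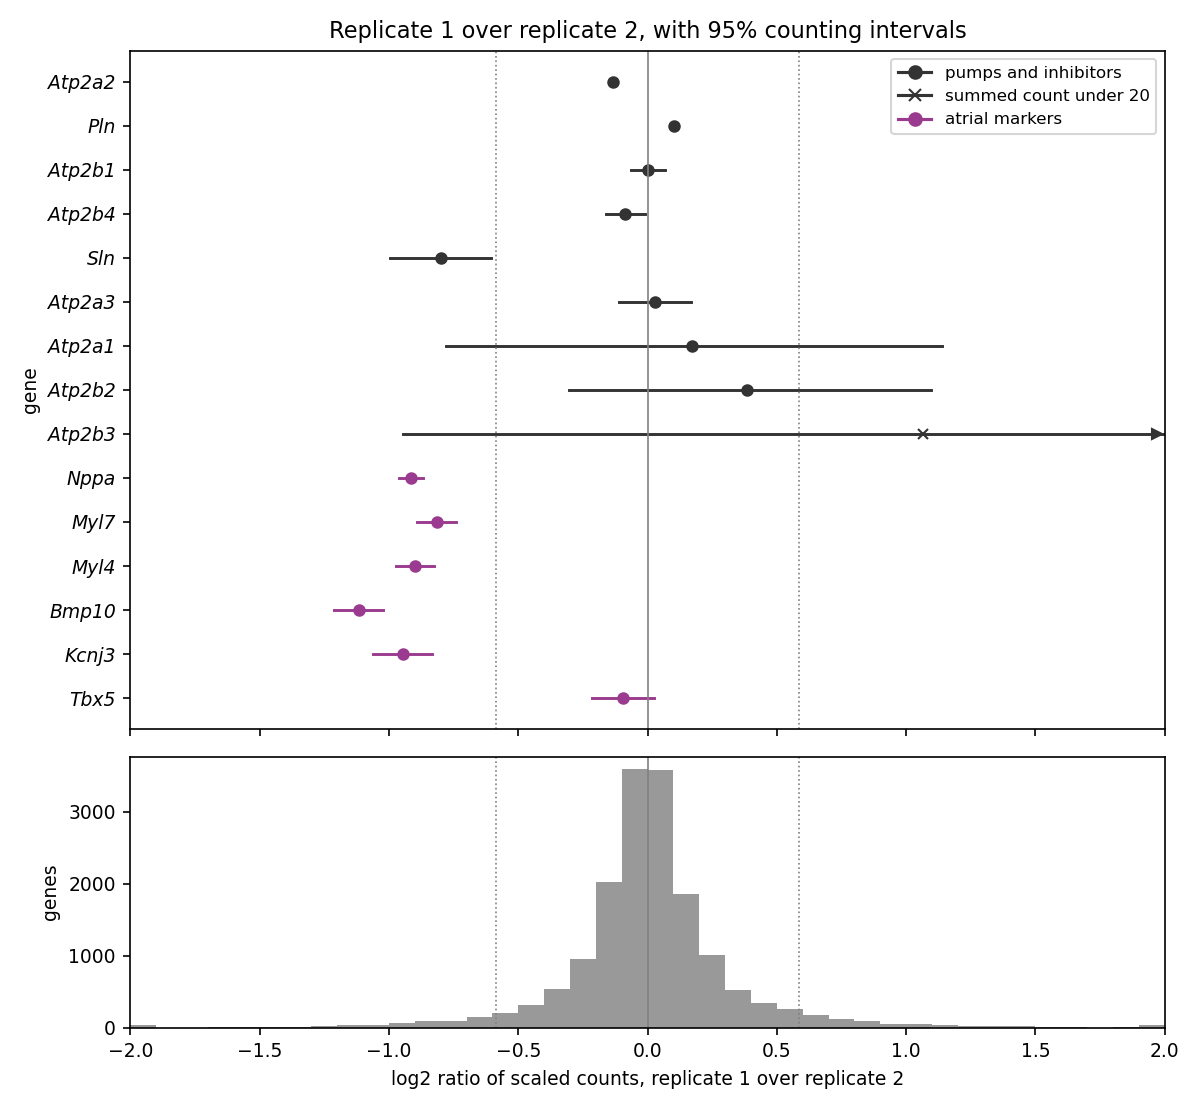
Upper panel, log2 ratio of scaled counts, replicate 1 over replicate 2, for the pumps and inhibitors (black) and the 6 atrial markers (purple), with exact 95% counting intervals as lines, a cross for the gene under a summed count of 20 and an arrow where an interval runs past the axis. Lower panel, number of genes by the same ratio over all genes tested, with values past the axis gathered in the end bins. Dotted lines mark 1.5-fold, and Sln lies with 5 of the 6 atrial markers on the side higher in replicate 2.

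The genes around the pumps were read from 6 lists, beginning with other regulators of SERCA. Of 8 listed symbols, 6 were in the tables and 4 reached 1 TPM in both hearts. S100a1, a calcium-binding protein known to stimulate SERCA, led with 168 and 191 TPM in replicates 1 and 2. Gm34302 had 85.2 and 81.7 TPM by RSEM, from 384 and 361 counts and a single annotated transcript of 243 nt. It was listed at 0 by kallisto in both hearts. The RefSeq gene table gives it as Strit1, the peptide DWORF that is known to displace the inhibitors from the pump. The gene 1810037I17Rik, given there as the regulin Aln, had 37.1 and 44.0 TPM, and Hax1, a partner of phospholamban, had 17.8 and 20.8 TPM. Both rest on more counts than Gm34302, with 1233 and 1435 for Aln and 464 and 480 for Hax1. Among the inhibitor peptides Pln was thus the most abundant in RNA, and Sln lay below Aln in both hearts. None of the 4 regulators with enough counts was past 1.5-fold between the hearts.

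The second list held the kinases, phosphatases and anchors that act on phospholamban, and all 16 of its genes were at 1 TPM or more in both hearts, with a median level of 36.1 and 35.0 TPM in replicates 1 and 2. The highest was Prkar1a, a regulatory subunit of protein kinase A, at 233 ± 7.9 TPM. Ppp1cb and Ppp1ca, catalytic subunits of the phosphatase that reverses phospholamban phosphorylation, stood at 192 ± 8.4 and 186 ± 4.6 TPM. Prkaca, the catalytic subunit of protein kinase A, stood at 175 ± 2.9 TPM. Camk2d, the main CaMKII gene of heart, named here for its role and with its values known, had 79.1 and 72.8 TPM in replicates 1 and 2. None of the 16 was past 1.5-fold between the hearts.

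The calcium stored by SERCA is held by buffers and released through channels of the reticulum. Of the 6 buffers all were at 1 TPM or more. Sarcalumenin (Srl) and cardiac calsequestrin (Casq2) stood close together at 453 ± 25 and 449 ± 12 TPM, followed by Hrc, the histidine-rich calcium-binding protein, at 155 ± 19 TPM and calumenin (Calu) at 142 ± 0.7 TPM. Of the 6, only Casq1, the skeletal calsequestrin, was past 1.5-fold, with 2.66 TPM in replicate 1 and 4.50 TPM in replicate 2. Among 10 release genes, 8 reached 1 TPM in both hearts. The cardiac release channel Ryr2 led with 312 and 349 TPM, followed by Jph2, which tethers the reticulum to the cell surface, at 155 ± 3.2 TPM, and by triadin (Trdn) and Asph, the source of junctin, at 130 ± 2.1 and 108 ± 1.0 TPM. Ryr3 was past 1.5-fold in scaled counts and higher in replicate 2 (log2 ratio −1.21), although its TPM was 0.85 and 0.89.

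Fewer of the other calcium transporters were expressed. Of 6 genes, 3 reached 1 TPM in both hearts. After Slc8a1 came Atp2c1, the calcium pump of the Golgi, with 25.6 and 23.4 TPM in replicates 1 and 2, below Atp2b1 in both hearts. The mitochondrial exchanger Slc8b1 had 5.09 and 5.08 TPM, and Slc8a2, the exchanger of nerve cells, had 0.58 and 0.63 TPM. None of the 5 genes with enough counts was past 1.5-fold.

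Several partners of the plasma membrane pumps were more abundant than the pumps. Basigin (Bsg), an obligate subunit of PMCA complexes along with neuroplastin, reached 515 TPM in replicate 1 and 496 TPM in replicate 2, above the summed PMCA level in both. Calm3 and Calm2, which encode the activator protein calmodulin, stood at 109 ± 10.1 and 101 ± 4.3 TPM. Of the 7 partners, 6 reached 1 TPM in both hearts, and the exception, Nos1, the neuronal nitric oxide synthase, had 0.06 and 0.10 TPM and was past 1.5-fold, higher in replicate 2, with a counting interval of the log2 ratio from −1.75 to 0.06 that spans 0.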

How the data were processed

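Total RNA (300 ng per library, with ERCC spike-ins) was sequenced from 2 hearts. Per the text deposited with the files, the tables were made on assembly mm10 with annotation M21. RSEM and kallisto are named from the headers, and versions, trimming, strand setting and read length were not stated. The expected counts, TPM and percent of the gene's TPM per transcript were made by the authors from transcriptome alignments, per the file headers. The deposited interval bounds, in TPM, score the uncertainty of the posterior mean TPM, which they enclosed for each pump and inhibitor gene. The TPM given here can lie outside them. For Atp2a2 in replicate 1 the bounds were 3127 to 3148, around a posterior mean of 3138 and below the TPM of 3206. In both hearts the TPM of Pln also lay above its bounds. The estimated counts and TPM of the kallisto table were made by the authors from the reads with an index. Reads were assigned to the C57BL/6J reference, which could lose reads of CAST/EiJ alleles from each library. Spike-ins (0.541% and 0.575% of expected counts in replicates 1 and 2) and 26248 entries with numeric identifiers (3.84 and 2.92 counts) were left out of library sizes.

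Pair ratios used TPM with a pseudocount of 0.1, and a pair was called apart where its sign was shared by the libraries and its mean lay beyond 3 SD. Counts were rounded and scaled by TMM in edgeR 4.0.16 (R 4.3.3), with a prior count of 0.5 in ratios. With 1 group no edgeR test could be made. Intervals are exact (Clopper-Pearson), and amplified reads are not independent molecules. The alternatives were DESeq2 1.42.0 size factors, total count scaling, count minimums of 10, 100 and none, and pseudocounts of 0.01 and 1. Others were kallisto values, posterior means, CPM, TPM over nuclear protein-coding genes (mitochondrial genome left out) and leaving out each library. The ratios and intervals were tried on counts simulated with counting error only and scaled by total counts. TMM scaling and the spread between animals were therefore not tried. Residues were aligned with Biopython 1.88 in Python 3.11.15. The 9 genes and the 15 lists were chosen with earlier results of these data known. By rule, each list is given by its count at 1 TPM, its 4 highest genes and those past 1.5-fold, and a few genes and 1 sequence it would give are not reported here. Of the listed symbols 2 were absent from the tables, one of them Strit1, read as Gm34302.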

Additional observations from a re-analysis of the deposited data

How the results depend on the processing

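No paired analysis was possible because there was 1 group. Of the 10 pairs, all kept their direction under each alternative, and 9 kept their call under those run on both libraries. With 1 library left out there is no SD, and only the direction was read. The log2 ratio Pln/Atp2a2 was −0.44 with kallisto TPM, no longer beyond 3 SD. Members past 1.5-fold between the hearts numbered 2 with a count minimum of 10 and 2 with none, against 1 with 20, since Atp2b3 then entered. Of all genes, 2.64% were past 1.5-fold with a minimum of 100 and 31.02% with none. The share of the leading transcript of Atp2a2 was 82.3% by kallisto and 73.8% by expected counts. That of Pln-201 was 37.5% by kallisto and 81.8% by expected counts. Levels of all 9 genes shifted when TPM was taken over nuclear protein-coding genes alone, with Atp2a2 at 7901 and Pln at 4686 TPM. Depth limits Atp2a1, Atp2b2 and Atp2b3, and 2 libraries limit every SD.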

Other observations

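Markers of the other cell types a heart sample holds were read alongside the pumps. Smooth muscle and mural markers reached 1 TPM in both hearts for 5 of 5 genes, led by Acta2 at 211 and 243 TPM and Rgs5 at 177 and 168 TPM in replicates 1 and 2, and summed to 430 and 457 TPM. Of the 6 endothelial markers, Cdh5 led with 132 and 130 TPM. None of these 11 was past 1.5-fold between the hearts.

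Among the blood cell markers, Cd3e of lymphocytes was past 1.5-fold and higher in replicate 1 (0.80 and 0.46 TPM in replicates 1 and 2). It rests on 23 and 10 counts, with a counting interval of the log2 ratio from 0.04 to 2.40. Itga2b of platelets was past 1.5-fold and higher in replicate 2 (1.12 and 1.61 TPM), from 58 and 88 counts, with an interval from −1.14 to −0.14.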
